A study of Homo sapiens with 4 samples.

Results

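The metallothioneins are a family of small cysteine-rich proteins, and 8 of its human genes are described here, namely MT1A, MT1E, MT1F, MT1G, MT1H, MT1M, MT1X and MT2A. They were taken as every array probe whose platform gene symbol is in that list, and a probe was called detected on an array at a detection p-value under 0.01. Of the 8 genes, 7 had a named probe, out of 20037 genes with one, with 9 of the 47293 probes on the array between them, and MT1A had none in the annotation used here. The probes of 6 genes were detected on at least 1 array, and 4 of these genes, MT1E, MT1F, MT1G and MT1X, were detected on all 4 arrays. Detected probes were chosen by the detection p-values of these same arrays, and the family itself was picked with earlier results of them known, so every count and median below is a description and carries no test.

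The RNA came from H9, a long-established line of human embryonic stem cells, grown on Matrigel, a basement membrane extract, in samples labelled D2. The medium was E8, which is serum-free and of defined composition, and it was renewed daily. The dense bicarbonate culture was above 90% confluence in E8 with 20 mM sodium bicarbonate added, and the dense control culture was above 90% confluence in unmodified E8. The sparse bicarbonate and sparse control cultures were below 70% confluence in the same pair of media. Each of the 4 groups was 1 sample on 1 Illumina expression array, so precision is limited by having a single array for each, and differences between groups are given without p-values or any estimate of the spread between cultures. All 4 share the cell line, and none of the 4 is a control with another sodium salt.

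Metallothioneins bind zinc and copper, and also cadmium, through clusters of cysteine thiolates, and they buffer the pool of free zinc in the cytosol. Their transcription is raised by MTF1, a zinc finger protein that senses free zinc and binds metal response elements in their promoters, and also by glucocorticoids, oxidants and low oxygen in many cell types. MT1 and MT2 genes are expressed in many tissues, MT3 chiefly in brain and MT4 in stratified squamous epithelium. Most of the family lies in a cluster on chromosome 16, where RefSeq lists 16 genes and pseudogenes in a row from MT4 to MT1X. Because the members are nearly identical in sequence, a probe named for 1 of them may bind the transcripts of others, and the values below belong to probes before they belong to genes.

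The promoters of 3 members, MT1H, MT1X and MT2A, were in the RefSeq table (build GRCh38.p14), and they are printed as the only member promoters found there. Each window runs from 250 bases before to 50 bases after the gene start, on the plus strand and 5′ to 3′, and capitals mark matches to the core of the metal response element, searched as TGCACNC and TGCGCNC on both strands, where N is any base. The windows are chr16:56669564-56669863 for MT1H, chr16:56682220-56682519 for MT1X and chr16:56608334-56608633 for MT2A.
MT1H: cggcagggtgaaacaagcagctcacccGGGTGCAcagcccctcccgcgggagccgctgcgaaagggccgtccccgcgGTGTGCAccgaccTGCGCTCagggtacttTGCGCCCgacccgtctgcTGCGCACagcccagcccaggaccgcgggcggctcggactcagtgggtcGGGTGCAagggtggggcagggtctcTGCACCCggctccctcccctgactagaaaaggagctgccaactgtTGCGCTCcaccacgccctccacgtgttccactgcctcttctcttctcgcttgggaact
MT1X: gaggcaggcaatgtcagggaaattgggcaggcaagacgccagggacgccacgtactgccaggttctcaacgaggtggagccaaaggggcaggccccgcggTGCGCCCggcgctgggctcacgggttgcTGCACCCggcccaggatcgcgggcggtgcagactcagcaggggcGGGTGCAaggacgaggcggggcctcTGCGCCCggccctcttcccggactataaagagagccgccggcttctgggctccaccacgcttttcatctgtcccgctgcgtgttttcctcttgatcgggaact
MT2A: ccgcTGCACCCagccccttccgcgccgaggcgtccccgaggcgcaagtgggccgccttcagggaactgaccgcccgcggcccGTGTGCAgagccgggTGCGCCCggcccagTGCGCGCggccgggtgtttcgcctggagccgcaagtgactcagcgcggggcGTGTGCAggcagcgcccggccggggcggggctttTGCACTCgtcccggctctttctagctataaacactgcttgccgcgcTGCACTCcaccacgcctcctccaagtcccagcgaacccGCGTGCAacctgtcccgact
The MT1H window held 8 matches, that of MT2A 8 and that of MT1X 4. Of 35116 promoters of the same length in the table, 29.6% held at least 1 match, 0.601% at least 4 and 0.0199% at least 8. A match on the plus strand began 53 bases before the start of MT1H and of MT1X, written as -53, and at -54 in MT2A. A match on the minus strand had its leftmost base at -78 in both MT1H and MT1X, and at -88 in MT2A. The windows of MT1X and MT2A also held the core promoter element TATAAA, found in 11.5% of promoters on either strand. That of MT2A held TGACTCA, the recognition letters of the AP-1 factors, found in 4.95%. All 3 windows held GGGCGG, the box bound by SP1, found in 45% of promoters, and 1 such box in MT1X shared 2 bases with the metal response element match at -78. The antioxidant response element, searched as TGACNNNGC, was found in MT1X and MT2A and in 13.3% of promoters, and in MT2A it shared 7 bases with the AP-1 match. The E-box, searched as CACGTG, was found in MT1H and in 7.26% of promoters. The promoters of MT1B and MT4, whose probes were detected on none of the arrays, held 3 matches each, and at least 3 were found in 2.3% of promoters. The promoter of SLC30A1, a zinc exporter gene also known as a target of MTF1, held 2, and at least 2 were found in 8.6%. A match is a run of letters and not a site shown to be bound.

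**Figure D1:**
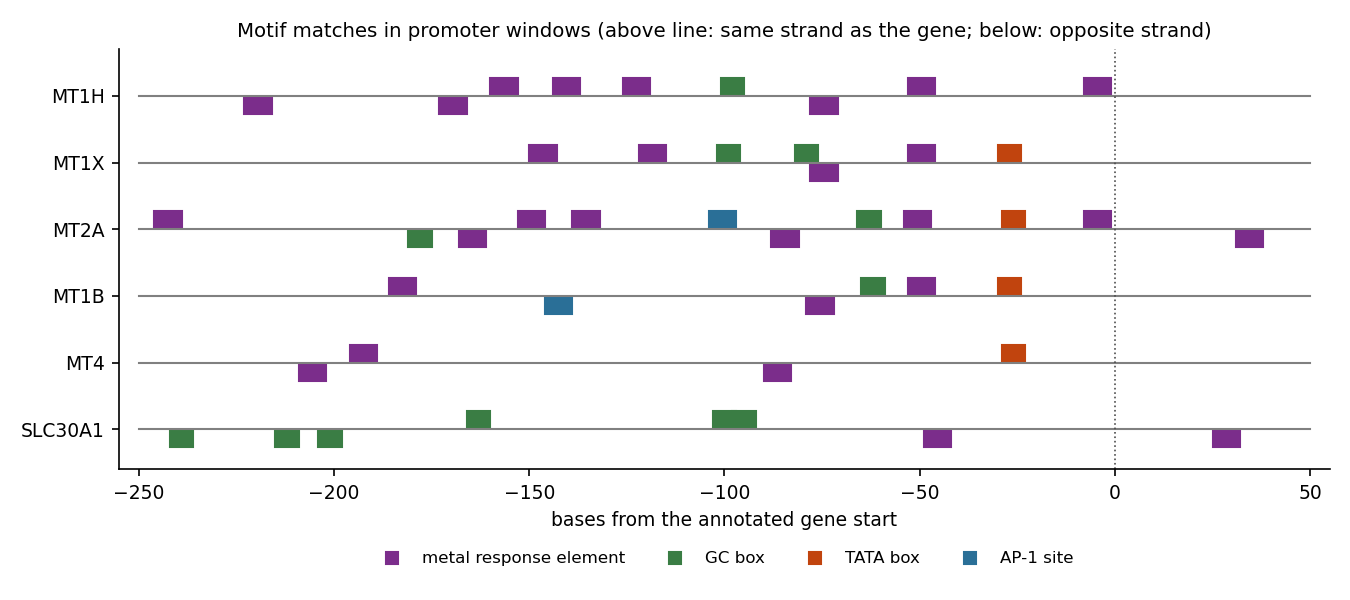
Matches to 4 of the motifs in 6 promoter windows, plotted by distance in bases from the annotated gene start, with boxes above the line on the gene's own strand and below it on the opposite strand. MT1H and MT2A hold 8 metal response element matches each, MT1X holds 4, MT1B and MT4 hold 3 each and SLC30A1 holds 2.

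MT1G, one of the metallothionein-1 genes, was detected in every culture by its 1 probe. Its intensity before normalization was 602 in the dense bicarbonate culture, 1798 in the dense control, 516 in the sparse bicarbonate culture and 429 in the sparse control. After background correction and quantile normalization these became log2 intensities of 9.38, 10.57, 8.72 and 7.97 in the same order of cultures. The dense control was thus the highest culture, and the other 3 were themselves spread over more than 1 log2 unit.

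MT1E had 2 probes that behaved differently. On the brighter probe the intensity was 347 in the dense bicarbonate culture, 1138 in the dense control, 266 in the sparse bicarbonate culture and 255 in the sparse control, or log2 intensities of 8.33, 9.87, 7.32 and 6.75. The last of these was just inside detection, with a detection p-value of 0.0039. The second MT1E probe was detected on none of the arrays and stayed between log2 intensities of 4.76 and 4.87, so the MT1E values rest on 1 probe.

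MT1F read log2 intensities of 8.48 in the dense bicarbonate culture, 9.24 in the dense control, 8.37 in the sparse bicarbonate culture and 7.52 in the sparse control. MT1X varied least among the detected members, at 8.76, 9.08, 8.34 and 8.22 in the same order. For MT1F both bicarbonate cultures lay close together, between its control values. For MT1X both dense cultures lay above both sparse ones.

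MT2A, the main metallothionein-2 gene, read log2 intensities of 8.40 in the dense bicarbonate culture, 9.23 in the dense control, 6.60 in the sparse bicarbonate culture and 6.32 in the sparse control. It sat at the edge of detection in the sparse cultures, just inside with bicarbonate (detection p-value 0.0091) and just outside in the control (0.013). MT1H read 6.75 in the dense bicarbonate culture and 8.25 in the dense control, and it was not detected in the sparse bicarbonate culture (detection p-value 0.0299) or the sparse control (log2 intensity 5.46, detection p-value 0.0584). The second MT1H probe came nearest to detection in the dense control, where its log2 intensity of 6.03 had a detection p-value of 0.0195, against 4.92 in the dense bicarbonate culture and 4.71 in both sparse ones. MT1M was detected on no array, with log2 intensities from 4.65 to 4.77, and the 5 other family members with a named probe, MT1B, MT1IP, MT1L, MT3 and MT4, were not detected either.

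The 6 detected genes ordered the 4 cultures alike. The dense control was highest, followed by the dense bicarbonate, the sparse bicarbonate and the sparse control culture, in 4 of 4 genes detected on every array. MT2A and MT1H had this order too, which makes 6 of 6. MT1H was detected in the dense cultures alone, and MT2A in all but the sparse control. Part of their order was thus set by detection, and the share that follows does not apply to them. Of the 8554 genes of the series detected on all 4 arrays, 7.65% had this order. The order is that of normalized values, it differs in the deposited intensities of some members, and for MT2A and MT1H it includes values below detection. Different probes were not ranked against each other, since their brightness depends on the probe.

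**Figure D2:**
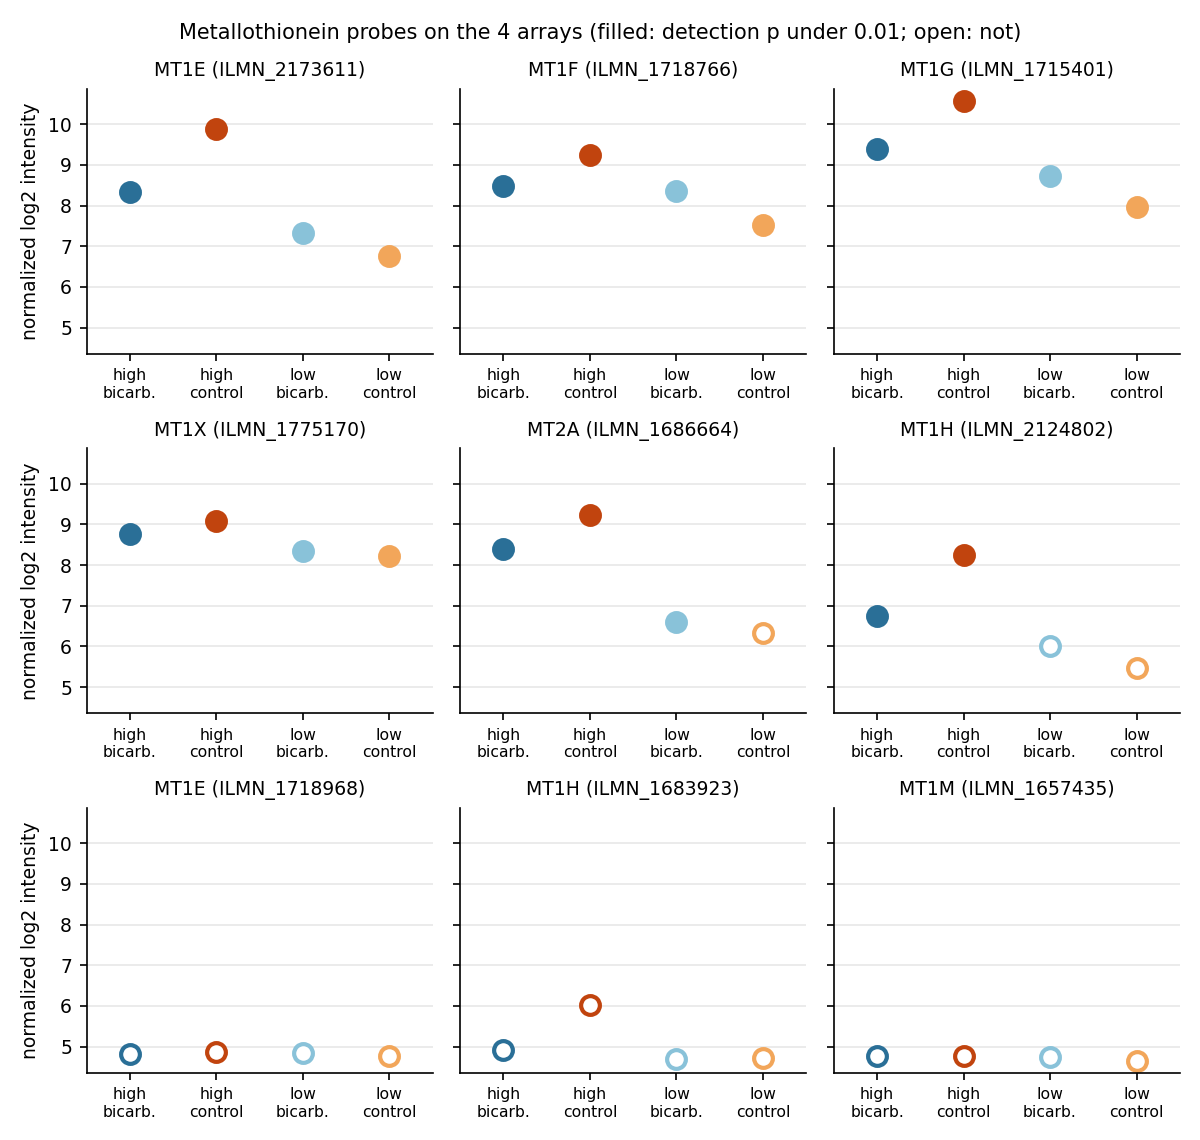
Normalized log2 intensity (vertical axis) of the 9 metallothionein probes in the 4 cultures, with filled circles where the detection p-value is under 0.01 and open circles where it is not. In the 6 panels of detected genes the dense control is the highest culture and the sparse control the lowest, as in MT1G at 10.57 and 7.97.

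High and low density were first compared in control medium. MT1E was 8.66-fold higher in the dense control than in the sparse control (log2 difference 3.11), MT1G 6.05-fold (2.60), MT1F 3.31-fold (1.73) and MT1X 1.82-fold (0.86). Among 8936 genes detected on both arrays these differences were the 3rd, 5th, 38th and 494th from the highest. MT2A and MT1H, not detected in the sparse control, were at least 7.22-fold (2.85) and at least 3.67-fold (1.88) higher by the main processing. These bounds depend on the processing. Their lowest values under the alternatives described below were log2 differences of 1.85 for MT2A and 1.08 for MT1H. Of the 4 measured members, 3 were higher by 2-fold or more and 0 were lower by as much, where 3.77% of all measured genes were higher and 2.84% lower by 2-fold or more. The median of the measured members was 2.16, where that of all genes was 0.01.

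The density difference was also present, at a smaller size, in the intensities before normalization. The deposited intensities were 4.46 times as high in the dense as in the sparse control for MT1E, 4.19 for MT1G and 3.47 for MT2A. The ratio was 2.57 for MT1H, 2.22 for MT1F and 1.45 for MT1X, while the median intensity of these arrays had a ratio of 0.977. Without background correction MT1E differed by 2.23 on the log2 scale, MT1G by 2.15 and MT1F by 1.27, each below the corrected value.

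With bicarbonate in both media the density difference was smaller for every member that could be compared. MT2A had the largest, 3.49-fold higher in the dense than in the sparse bicarbonate culture (1.80), followed by MT1E at 2.02-fold (1.02). MT1G (0.66), MT1X (0.42) and MT1F (0.12) were less than 2-fold apart, and MT1H was at least 1.17-fold higher. That is 2 of 5 measured members at least 2-fold higher, where 3.43% of all measured genes were. The deposited intensities were 0.868 times as high in the dense as in the sparse bicarbonate culture for MT1F and 0.992 times for MT1H, where the median intensity of these arrays had a ratio of 0.765, so these 2 were higher only after normalization. The control-medium and bicarbonate-medium density differences share no array. On the log2 scale the density difference with bicarbonate was 48.3% of that in control medium for MT1X, 32.6% for MT1E, 25.4% for MT1G and 6.75% for MT1F. These shares rest on single arrays. Log2 density differences were also compared between 2 probes of the same gene. The standard deviation of their disagreement, divided by the square root of 2, was 0.35 in control medium and 0.29 with bicarbonate. These values stand for the spread of 1 probe, and the disagreement itself is larger. Whether the members differ in how much of the density difference was seen with bicarbonate was not tested.

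**Figure D3:**
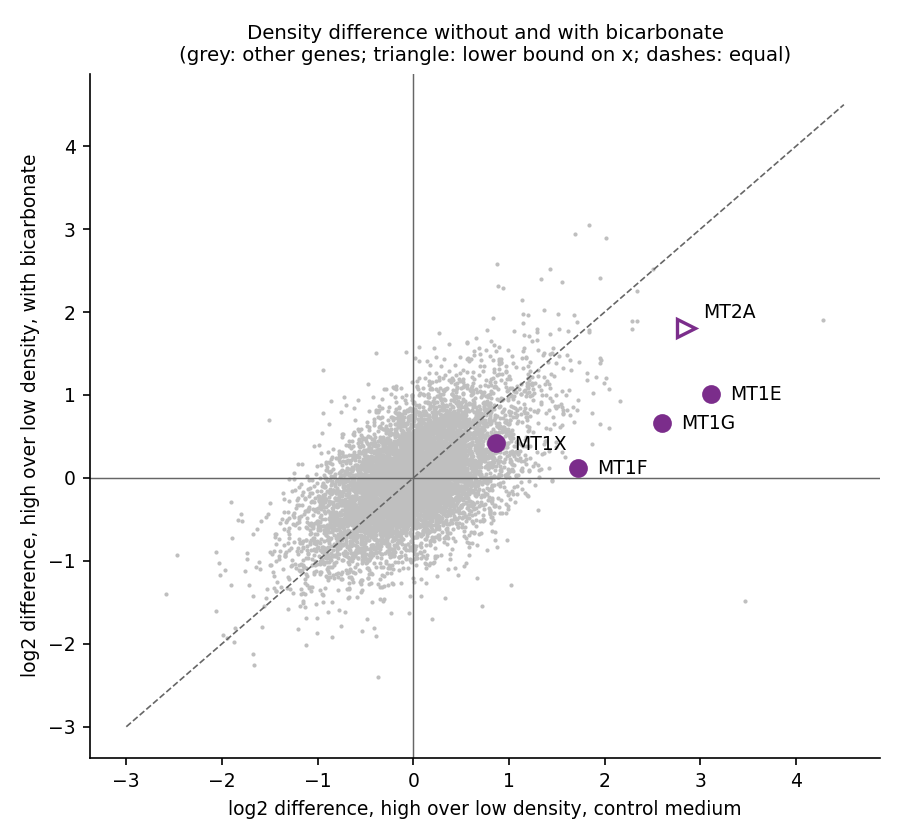
Log2 difference of high over low density in control medium (horizontal) and with bicarbonate (vertical) for genes measured in both, with metallothioneins in purple, a triangle for the MT2A lower bound and dashes where both are equal. MT1E (3.11 and 1.02), MT1G (2.60 and 0.66) and MT1F (1.73 and 0.12) lie far below the dashed line.

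At high density the metallothioneins were lower with added bicarbonate. MT1E was lower by a log2 difference of -1.53 against the dense control, MT1H by -1.50, MT1G by -1.19, MT2A by -0.83, MT1F by -0.76 and MT1X by -0.32. Of the 6 members measured here, 3 were lower by 2-fold or more and 0 were higher by as much, where 0.599% of 9188 genes were lower and 0.522% higher by 2-fold or more. Their median was -1.01, where that of all genes was 0.02. MT1E and MT1H had the 7th and 8th lowest differences, MT1G the 24th, MT2A the 129th, MT1F the 182nd and MT1X the 1315th. The dense bicarbonate array was dimmer as a whole, with a median intensity 0.722 times that of the dense control, and the deposited intensities of these 6 probes had lower ratios still, from 0.305 for MT1E to 0.615 for MT1X. This comparison and the density comparison in control medium both use the dense control array, so they are not independent and no overlap of their genes is given.

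At low density the differences with bicarbonate ran the other way, and among the 4 measured members they were smaller in size than at high density except for MT1F. MT1F was higher by a log2 difference of 0.85 in the sparse bicarbonate culture than in the sparse control, MT1G by 0.75, MT1E by 0.56 and MT1X by 0.12, and MT2A was at least 1.17-fold higher. None of the 4 measured members was 2-fold apart, where 0.0892% of 8973 genes were higher and 0.1% lower by 2-fold or more. At 1.5-fold, 2 of the 4 were higher, MT1F and MT1G, where 2.24% of all genes were. MT1F had the 26th highest difference of all genes, MT1G the 54th, MT1E the 237th and MT1X the 3145th, and the central 95% of genes ran from -0.51 to 0.57. The median of the members was 0.66, where that of all genes was 0.03. The sparse bicarbonate array had a median intensity 0.922 times that of the sparse control. The deposited intensities had ratios of 1.24 for MT1F, 1.20 for MT1G and 1.05 for MT1E, but 0.942 for MT2A and 0.875 for MT1X, which were dimmer before normalization in the sparse bicarbonate culture. In 1738 genes with at least 2 detected probes, the spread of 1 probe was 0.29 in this comparison. It is the standard deviation of the disagreement between 2 probes divided by the square root of 2, and it holds no variation between cultures.

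The bicarbonate difference at high density minus that at low density was -2.10 for MT1E, -1.94 for MT1G, -1.61 for MT1F and -0.45 for MT1X. By its arithmetic this equals the density difference with bicarbonate minus that in control medium, so it restates those values and is not a further result. Of 8554 genes, 2.43% had a value of -1 or lower, as 3 of the 4 members did. MT1E had the 5th lowest value, MT1G the 7th, MT1F the 17th and MT1X the 1438th.

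**Figure D4:**
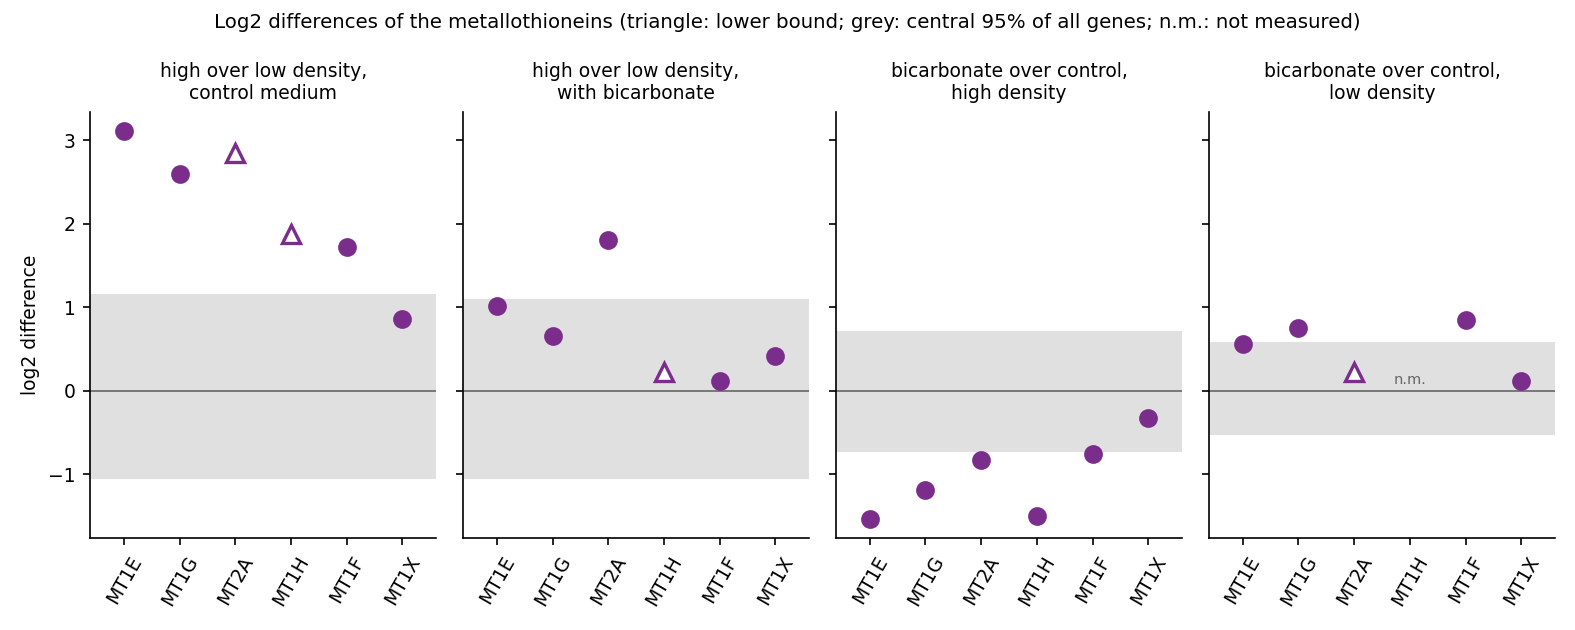
Log2 differences (vertical axis) of 6 metallothioneins in 4 comparisons, as circles where both arrays detected the gene and triangles for lower bounds, with the central 95% of all measured genes in grey. Values reach 3.11 for density in control medium, run from -0.32 to -1.53 for bicarbonate at high density, and are 0.85 or less for bicarbonate at low density.

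MTF1, the metal-sensing activator of these genes, was level across the cultures. Its log2 intensity was 8.06 in the dense bicarbonate culture, 8.08 in the dense control, 8.09 in the sparse bicarbonate culture and 8.11 in the sparse control. The other regulators of metallothionein transcription were compared as well. STAT3, the transducer of interleukin-6 signals, was 0.30 higher in the dense control than in the sparse control, SP1 0.24 and the oxidant-sensing factor NFE2L2 0.17. The other detected probes of STAT3 read 0.44 and -0.14, so its probes differed in sign. Of the 4 regulators measured in that comparison, 0 were 1.5-fold apart, where 12% of all genes were higher and 11.9% lower by 1.5-fold or more, so that 0 of 4 is near the background. USF1, an E-box factor, was detected in the sparse control (6.74) and not in the dense control (6.02), and was at least 1.26-fold lower in the dense control. Array levels say nothing of the activity or zinc loading of these proteins.

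SLC30A1, the zinc exporter of the plasma membrane and a known MTF1 target, did not follow the metallothioneins. Its log2 intensity was 7.38 in the dense bicarbonate culture, 6.51 in the dense control, 7.56 in the sparse bicarbonate culture and 7.24 in the sparse control. The dense control was thus its lowest culture, where the metallothioneins were highest, with a difference of -0.73 for density in control medium and of 0.87 for bicarbonate at high density. A second probe read 6.97, 6.50, 7.10 and 6.63 in the same order, with differences of -0.13 and 0.47. Both probes lay near the lowest detected log2 intensity of the dense control array, 6.41. Before normalization the first probe read 225 in the dense bicarbonate culture and 224 in the dense control, and the second 193 and 223. The median intensity of these arrays had a ratio of 0.722. The first probe was thus nearly level before normalization, and the second was higher with bicarbonate only after it.

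The other zinc transporters went in both directions. Of 5 measured exporters of the SLC30 family, 1 was at least 1.5-fold lower in the dense control than in the sparse control, SLC30A1, and 0 were higher, with a median of 0.01, where 12% of all genes were higher and 11.9% lower. With bicarbonate at high density SLC30A5, which loads zinc into the secretory pathway, stood at -1.34, but its other detected probes read -0.22 and -0.74. Of 8 measured importers of the SLC39 family, SLC39A10 was higher in the dense control than in the sparse control (0.97) and SLC39A14 was lower (-1.25), and the median was -0.16, which again are counts near that background. SLC39A10 was lower with bicarbonate at high density (-0.76), and SLC39A14 stood at 0.44. Bicarbonate at high density left 1 exporter at least 1.5-fold higher and 1 lower, and 0 importers higher and 1 lower, where 4.49% of all genes were higher and 4.47% lower.

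Genes that handle copper and iron came next. Of 9 measured copper genes, among them the chaperone ATOX1 and the dismutase SOD1, 0 were 1.5-fold apart for density in control medium (median 0.11) or for bicarbonate at high density (median -0.16). Of 5 measured iron genes, among them the ferritin light chain FTL and the transferrin receptor TFRC, 0 were 1.5-fold apart in either comparison, with medians of 0.12 and -0.10. Over all genes 12% were higher and 11.9% lower by 1.5-fold for density in control medium, and 4.49% and 4.47% for bicarbonate at high density, so counts of 0 in lists this short are near the background.

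Genes known to respond to heavy metals outside the family were compared in the same way. Of 8 measured, 0 were at least 1.5-fold higher in the dense control than in the sparse control and 2 were lower, the thioredoxin reductase TXNRD1 (-1.14, and -0.35 on its second probe) and the co-chaperone DNAJB1 (-0.75), with a median of -0.30. These counts are near the background of 12% higher and 11.9% lower over all genes. HMOX1, the haem oxygenase, stood at 0.44. With bicarbonate at high density the near-identical heat shock genes HSPA1B (-0.98) and HSPA1A (-0.71) were lower, 2 of 8 where 4.47% of all genes were, and the median was -0.30.

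Genes known to be induced by glucocorticoids were mixed. In the dense control against the sparse control TSC22D3 (0.75) and CRISPLD2 (0.85) were at least 1.5-fold higher and ERRFI1 (-0.90) and SGK1 (-0.71) lower, out of 6 measured, where 12% of all genes were higher and 11.9% lower. The other detected probes of SGK1 read -0.72 and -0.35. KLF9 read log2 intensities of 6.84 in the dense bicarbonate culture and 7.72 in the dense control, and it was not detected in the sparse cultures. By the main processing it was at least 2.53-fold higher in the dense control than in the sparse control. Before normalization KLF9 read 348 in the dense control and 179 in the sparse control, a smaller difference. It was lower with bicarbonate at high density (-0.88), the only 1 of 7 measured genes of that list to be 1.5-fold apart there, where 4.49% of all genes were higher and 4.47% lower.

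**Figure D5:**
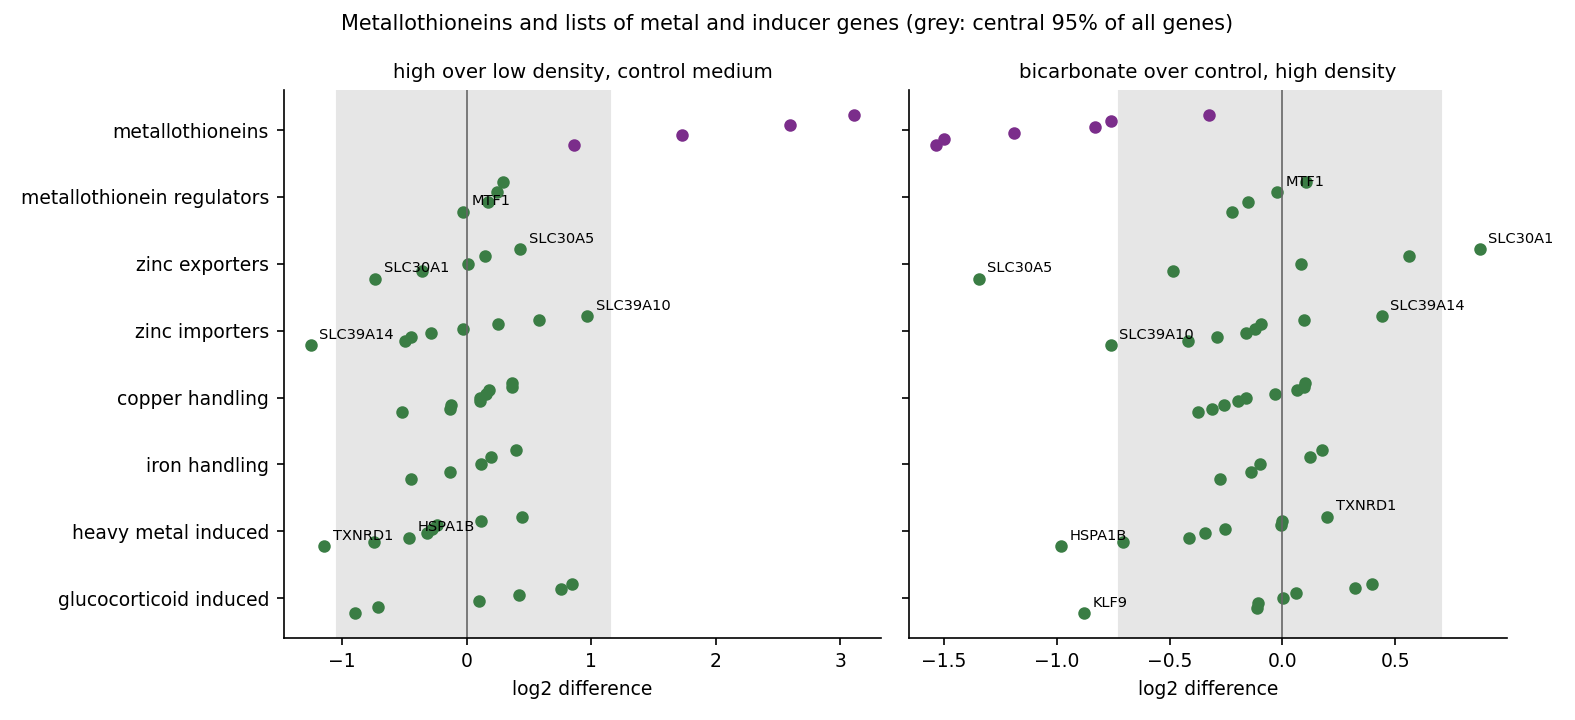
Log2 differences (horizontal axis) of measured metallothioneins and of 7 lists of metal and inducer genes, for density in control medium (left) and bicarbonate at high density (right), with 1 point per gene and the central 95% of all measured genes in grey. The metallothioneins reach 3.11 on the left and -1.53 on the right, MTF1 lies at -0.03 and -0.02, and SLC30A1 lies at -0.73 and 0.87.

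The genes that flank the cluster on chromosome 16 differed in both directions. Of the 5 nearest protein-coding genes on each side, 4 were measured, and 0 were 2-fold apart for density in control medium, where 3.77% of all genes were higher and 2.84% lower, so a count of 0 is near the background. For density in control medium NUDT21 stood at -0.36, OGFOD1 at -0.83 on its brighter probe and -0.34 on its second, and NUP93 at -0.19. BBS2, a ciliary gene next to MT4, stood higher, at 0.91 on its brighter probe and 1.77 on its second. With bicarbonate at high density those probes of BBS2 read 0.18 and -0.49. For density with bicarbonate they read 1.40 and 1.14, and BBS2 was the 1 neighbour of 4 at least 2-fold higher, where 3.43% of all genes were.

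The genes whose profile over the 4 arrays was nearest to the mean profile of the 4 members detected on every array were found by the Euclidean distance of log2 intensities, each centred on its own mean. Among 8550 genes outside the family the nearest were YIPF5 (distance 0.11), a membrane protein of the Golgi, PHLDA3 (0.23), a p53 target that restrains AKT, PTPRG (0.37), a receptor tyrosine phosphatase, VWDE (0.37) and TIPARP (0.39), a mono-ADP-ribosyltransferase. The members themselves lay at 0.38 for MT1G, 0.46 for MT1F, 0.86 for MT1E and 0.87 for MT1X. YIPF5 read log2 intensities of 7.54 in the dense bicarbonate culture, 8.40 in the dense control, 6.88 in the sparse bicarbonate culture and 6.45 in the sparse control. The nearest to MT1G alone were PHLDA3, YIPF5, VWDE, TYMSOS and SUN2, at distances from 0.44 to 0.57. A profile of 4 values matches many genes by its nature, and nothing is read from it about shared control.

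The cultures carried the markers of pluripotent stem cells, with 14 of 14 detected and 13 detected on every array. Of these 13, 4 were at least 1.5-fold lower in the dense control than in the sparse control and 0 were higher. Over all genes 11.9% were lower and 12% higher by as much. The 4 were ZFP42 (-0.84), DNMT3B (-0.84), L1TD1 (-0.64) and CRIPTO (-0.64), and the median over the list was 0.01. GDF3 was detected in the sparse cultures alone and was at least 2.32-fold lower in the dense control. Of 9 markers of fibroblasts and smooth muscle 5 were detected, and their summed normalized intensity was 8964 in the dense bicarbonate culture, 12009 in the dense control, 7057 in the sparse bicarbonate culture and 7803 in the sparse control. Most of that sum is THY1 and TAGLN, with log2 intensities of 12.84 and 11.78 in the dense control. For density in control medium ACTA2 (1.65) and TAGLN (0.91) were at least 1.5-fold higher and 0 of the 5 lower. The second TAGLN probe, at 0.54, fell short of 1.5-fold. The shares of all genes were again 12% higher and 11.9% lower. With bicarbonate at high density TAGLN (-1.29) and ACTA2 (-0.60) were lower, like the metallothioneins, while the collagens COL1A1 (0.99) and COL1A2 (0.58) stood higher, unlike them. At 1.5-fold, 2 of the 5 were lower and 1 higher, where 4.47% of all genes were lower and 4.49% higher. COL3A1, DCN, LUM and POSTN of that list were detected on no array. Of 8 markers of endoderm and liver, FOXA2 and AFP were detected in the sparse cultures alone and SOX17, GATA4, GATA6, ALB, TTR and APOA1 in none. Of 5 mesoderm markers only KDR was detected, of 4 neuroectoderm markers only NES, and of 5 trophoblast markers 0. KDR stood at 0.57 for density in control medium, 0.64 for bicarbonate at high density and 1.44 for density with bicarbonate. NES stood at -0.43, 0.26 and 0.25 in the same order. The part of other cell types, or of the lower pluripotency markers, in the metallothionein differences was not tested. In bulk RNA fewer expressing cells and less RNA per cell cannot be told apart.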

How the data were processed

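Total RNA was converted to biotin-labelled cRNA for Illumina expression arrays, per the labels' protocols. The deposited table holds an intensity per probe and array, not normalized per the file headers, with a deposited detection p-value against negative controls, of which its steps imply 770. The authors also deposited log2 values, whose median was 6.02 on each array and whose method is not given in the sources used here. The 4 arrays had 14128 to 15213 detected probes. The intensities were run through limma 3.58.1 (R 4.3.3), whose neqc function fits a normal-exponential background, adds an offset of 16 and equalises quantiles, and then analysed in Python 3.11.15. The groups came from the sample titles.

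The platform annotation gave 1 symbol to 30098 of 47293 probes, several to 8 and none to 17187. By gene ID, 30059 matched RefSeq, with 0 symbols updated. Among probes detected on 1 array or more, the brightest on average stood for its gene (10457 genes), which counted as measured where detected on all arrays compared. Where 1 of 2 arrays did not detect it, a lower bound was set against the higher of its own value there and the lowest detected value on that array. No test between groups was possible at 1 array each. The procedure was tested on simulated data.

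The rule for named genes takes all members, 8 lists of metal and inducer genes, the 5 neighbours per side and the 5 genes nearest in profile. The second probes, the BBS2 values, the markers given with values and the intensity ratios were singled out after their values were seen. Members and lists were chosen with earlier results of these data known.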

Additional observations from a re-analysis of the deposited data

Results flagged for a closer look

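For 4 members the bicarbonate difference had opposite signs at high and low density, lower at high density and higher at low density. The difference between both was -2.10 for MT1E, -1.94 for MT1G, -1.61 for MT1F and -0.45 for MT1X on the log2 scale. It equals the density difference with bicarbonate minus that in control medium. With 1 array per group this difference was not tested. For MT1X the bicarbonate difference at low density was small, at 0.12. Its deposited intensity there was lower with bicarbonate, at 0.875 times that of the sparse control.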

How the results depend on the processing

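No paired analysis was possible because each group has 1 array and no replicate. The alternatives left out background correction, used an offset of 50, set arrays to equal medians, took the authors' log2 values, called detection at a p-value under 0.05, asked for a log2 intensity of at least 8, or averaged the detected probes of a gene. All 173 member values under these alternatives kept their sign, but part of this was fixed in advance. No member had more than 1 probe detected at a p-value under 0.01, so averaging probes changed no member value. The intensity filter only removes values. The sign of a bound was set by which array detected the gene, and a bound at 0 or on its other side was not given. Every alternative still normalized the arrays to each other, and the deposited intensities of some members ran the other way, as given above. The median for density in control medium became 1.71 without background correction, 2.60 (5 measured members) with detection under 0.05 and 0.86 with the intensity filter. That filter left MT1X as the 1 measured member in 3 comparisons, so medians became 0.12 for bicarbonate at low density and -0.45 for the difference between both bicarbonate differences, and the counts of 2-fold members became 0 for density in control medium and for that difference. With bicarbonate it left 3 members for density, of which 0 were 2-fold higher. For density with bicarbonate 1 member instead of 2 was at least 2-fold higher without background correction, with the offset of 50 and with the authors' log2 values. For bicarbonate at high density 2 members instead of 3 were at least 2-fold lower without background correction, where MT1H stood at -0.91, and with the intensity filter. The filter turned the medians of glucocorticoid genes for density in control medium (-0.31) and of zinc exporters for bicarbonate at high density (-0.20). Averaging probes turned BBS2 for bicarbonate at high density (-0.16) and for the difference between bicarbonate differences (-0.071), and NUDT21 for bicarbonate at low density (0.47). Over all genes, those 2-fold apart in either direction ranged from 194 to 782 for density in control medium (591 as reported), 28 to 158 for bicarbonate at high density (103), 1 to 44 at low density (17), 206 to 813 for density with bicarbonate (562) and 97 to 580 for the difference between bicarbonate differences (373). Except where fewer genes were tested, the cause of these changes was not tested. Signal near background limits MT1H in both sparse cultures and MT2A in the sparse control, where only bounds could be given, and these bounds changed with the processing. The spread between cultures is unknown, and no array could be left out at 1 per group.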
